A study of Homo sapiens with 2 samples.

Results

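The genes described here are the claudins CLDN3, CLDN4, CLDN6, CLDN7 and CLDN10, occludin (OCLN), the epithelial cell adhesion molecule EPCAM, the junctional adhesion molecule F11R and the scaffold protein TJP1. They were taken by symbol, and they are 9 of the 33592 genes listed in either library. Single-cell RNA was measured in H1 (WA01), a human embryonic stem cell line, in 1 library of ZNF263 homozygous KO cells, made with Cas9, and 1 library of WT cells. The labels report no further treatment, and they do not say whether the KO cells were 1 clone. Each count is of unique molecular identifiers (UMIs), the tags that mark single captured RNA molecules. Counts were summed over deep barcodes, with a minimum of 1000 UMIs and 500 genes and a mitochondrially encoded share of 20% or less, and separately over shallower barcodes, with 250 to just under 1000 UMIs. Levels (CPM) are a gene's UMIs per 1000000 UMIs of the summed barcodes. Each genotype is 1 library, so there are no replicates and no test was made, and the intervals given are exact 95% intervals that cover counting error only.

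Tight junctions seal neighbouring epithelial cells at their apical side. Claudins are membrane proteins with extracellular loops that pair across cells and set which ions pass, occludin and the tricellulin-like MARVEL proteins run beside them, and cytoplasmic scaffolds such as TJP1 (ZO-1) tie the strands to actin. Primed human embryonic stem cells grow as an epithelial sheet, and EPCAM, which binds and stabilises CLDN7, and CLDN6 are widely used surface markers of these cells.

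The deep set held 2286 KO barcodes with 3567881 UMIs (median 1289.5 per barcode) and 2935 WT barcodes with 4650391 UMIs (median 1328). The shallower set held 50551 KO barcodes with 21086560 UMIs and 56837 WT barcodes with 23784553 UMIs. The libraries shared 20 barcode sequences in the deep set (0.875% of the KO and 0.681% of the WT barcodes), 4665 in the shallower set (9.23% of KO and 8.21% of WT) and 427525 among barcodes with 10 to 100 UMIs (74.8% of KO and 72.8% of WT). Where the shared sequences come from was not tested, so the KO and WT values at 10 to 100 UMIs, ZNF263 included, may not be independent of each other. Leaving the shared sequences out gave a log2 ratio of the summed members of 0.70 in the deep set and 0.65 in the shallower set. ZNF263, the targeted gene, had 27 UMIs (7.57 CPM) in deep KO barcodes and 83 (17.8 CPM) in deep WT barcodes, a log2 ratio of -1.24 (interval -1.92 to -0.60). In the shallower set it had 180 UMIs in KO and 372 in WT, a log2 ratio of -0.87. Its transcript was thus still counted in the KO library, and the extent of the deletion is not given in the labels. Among barcodes with 10 to 100 UMIs it had 200 KO and 235 WT UMIs, a log2 ratio of -0.12. All 10 embryonic stem cell markers were detected in deep barcodes of both libraries, with summed levels of 4965 CPM in KO and 4073 CPM in WT. Of 5 surface epithelium markers, KRT5, KRT14, TP63 and KRT15 were at 0 in deep barcodes of both libraries, and the list summed to 1 KO and 2 WT UMIs.

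Promoter sequence is shown because ZNF263 is a zinc finger factor known to bind G-rich sequence, and CLDN7 because it is the member with the widest difference among those counted at over 20 CPM. Of the 9 members, 7 matched RefSeq promoter windows of 300 bases (250 before to 50 after the start, build GRCh38.p14), in 13 windows. The letters GGAGGAGG, taken from the G-rich ZNF263 motif and searched on both strands, lay in 5 windows of 4 members, and in 10.9% of all 35097 windows. CAGGTG, the E-box that ZEB and SNAI repressors bind, lay in 6 windows of 5 members and in 20.6% of all windows, and AACCGGTT, the Grainyhead letters, lay in 0 of the 13 windows and in 0.134% of all windows. Stretches of 30 bases around matches in CLDN4, CLDN6 and CLDN7 follow, 5′ to 3′ on the gene's strand, with the motif letters of either strand in capitals.
CLDN4, chr7:73830900-73830929, plus strand, GGAGGAGG: gaaactggtcaGGAGGAGGccccagtgaca
CLDN6, chr16:3018235-3018264, minus strand, GGAGGAGG: gggtctctgccCCTCCTCCggggcggtggt
CLDN7, chr17:7262699-7262728, minus strand, GGAGGAGG: accgCCTCCTCCccagcggcggtcaaaacc
CLDN7, chr17:7262596-7262625, minus strand, CAGGTG: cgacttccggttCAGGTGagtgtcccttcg
CLDN7, chr17:7262481-7262510, minus strand, CAGGTG: cctacatatactCAGGTGcgcccCACCTGt
The CLDN4 and CLDN6 matches start 85 and 70 bases before the annotated start. The CLDN7 stretches belong to the second of its RefSeq windows, which held 5 CAGGTG matches in all, the most of the 13 windows. Its first window held 0 matches of each motif. At least 5 CAGGTG matches were found in 33 of the 35097 windows (0.0940%), a share looked up for the window with most matches. OCLN and TJP1, for which no change was detectable, also held CAGGTG matches, and OCLN held GGAGGAGG. A match of letters describes the sequence and says nothing of binding in these cells.

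In the KO library the 6 members that averaged 5 CPM or more (CLDN3, CLDN6, CLDN7, CLDN10, EPCAM and F11R) were all at higher levels than in WT, by 1.24-fold to 2.20-fold over both sets. The intervals of CLDN3 and CLDN10 in deep barcodes included 0, and those of the other values lay above it. The 9 genes together held 1853 UMIs (519 CPM) in deep KO barcodes and 1497 UMIs (322 CPM) in deep WT barcodes, a log2 ratio of 0.69 (interval 0.59 to 0.79), or 1.61-fold. In the shallower barcodes they held 11724 UMIs (556 CPM) in KO and 8455 UMIs (355 CPM) in WT, a log2 ratio of 0.65 (interval 0.60 to 0.69). The median log2 ratio of all genes averaging 20 CPM or more was -0.12 in each set, and relative to it the summed ratio was 0.81 in the deep set and 0.76 in the other. Without EPCAM, the gene with most UMIs, the log2 ratio was 0.60 in the deep set and 0.54 in the other. Whether more cells held these transcripts or each cell held more of them cannot be told apart from sums.

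**Figure D1:**
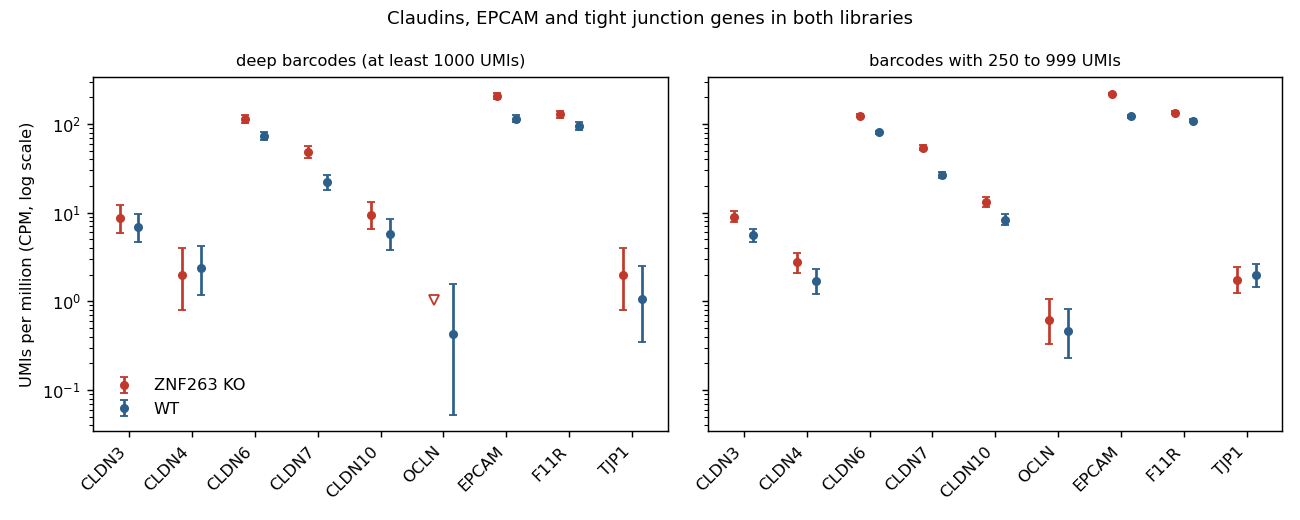
Level of each of the 9 genes in CPM (log scale), ZNF263 KO left of WT, in deep barcodes and in shallower barcodes. Points are the library values, bars are exact 95% intervals that cover counting error only, and the open triangle is the upper limit for OCLN at 0 UMIs in deep KO barcodes; the intervals of CLDN6, CLDN7, EPCAM and F11R do not overlap between the libraries in either panel.

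An average of 5 CPM, which 6 of the 9 genes reached in each set, was the level from which folds were counted. In deep barcodes 4 of these 6 were at least 1.5-fold higher in KO and 0 at least 1.5-fold lower, where 3.94% of all 10129 genes at that level were higher and 13.0% lower. In shallower barcodes 5 of 6 were at least 1.5-fold higher and 0 lower, beside 2.79% higher and 10.1% lower among 10148 genes. The median log2 ratio of the 6 was 0.67 in the deep set and 0.69 in the other, against -0.14 in the deep set and -0.15 in the other over all genes at that level. At 2-fold, 1 of the 6 was higher and 0 were lower in each set, and that gene was CLDN7. The shares of all genes past 2-fold were 0.928% higher and 3.84% lower in deep barcodes, and 0.512% higher and 2.85% lower in the shallower set. Because the members were chosen with earlier results of these data known, these counts describe the list and are not support for it.

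Among the claudins, CLDN7 (chromosome 17, 7259903 to 7263213, GRCh38), a partner of EPCAM in epithelial membranes, had 174 UMIs (48.8 CPM) in deep KO barcodes and 103 UMIs (22.1 CPM) in deep WT barcodes. In the shallower set it had 1140 UMIs (54.1 CPM) in KO and 630 (26.5 CPM) in WT. Its levels were 2.20-fold higher in KO in the deep set (log2 ratio 1.14, interval 0.78 to 1.5) and 2.04-fold higher in the other (log2 ratio 1.03, interval 0.89 to 1.17). Among genes averaging 20 CPM or more, 11 of 5710 had a higher ratio in the deep set and 14 of 5731 in the other. The 3′ end of CLDN7 overlaps that of ELP5, by 38 bases, and whether counting used strand is not given in the sources used here. ELP5, an Elongator subunit gene, had 1135 KO and 1118 WT UMIs in the shallower set, a log2 ratio of 0.20.

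CLDN6, a claudin of the early embryo and of pluripotent cells, had 405 UMIs (114 CPM) in deep KO barcodes and 342 UMIs (73.5 CPM) in deep WT barcodes, 1.54-fold higher in KO (log2 ratio 0.63, interval 0.41 to 0.84). In the other set it had 2621 UMIs (124 CPM) in KO and 1910 UMIs (80.3 CPM) in WT, with a log2 ratio of 0.63 (interval 0.54 to 0.72). Both sets thus gave the same ratio to 2 decimals on the log2 scale. CLDN6 lies on chromosome 16 at 3014712 to 3018183, 265 kb from ZNF263 at 3283491 to 3301401 (GRCh38), so its near neighbours were examined. In the shallower set, 7 genes between them averaged 5 CPM or more, and 0 were past 1.5-fold in either direction, where 2.79% of all genes were higher and 10.1% lower. In deep barcodes 6 were measured, and 1 was past 1.5-fold, ZNF200, a zinc finger gene, with 23 KO and 48 WT UMIs and a log2 ratio of -0.68 (interval -1.46 to 0.07), beside -0.39 in the shallower set. The median log2 ratio of the 7 was 0.12, with MMP25, a membrane-anchored metalloproteinase, at -0.41 and ZSCAN10, a zinc finger factor of stem cells, at 0.26.

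CLDN10 (chromosome 13, 95433755 to 95579759), which forms ion-selective pores in kidney and other epithelia, had 34 UMIs (9.53 CPM) in deep KO barcodes and 27 UMIs (5.81 CPM) in deep WT barcodes. Its deep log2 ratio of 0.71 had an interval of -0.06 to 1.5, which includes 0. With more counts in the shallower set, 279 UMIs (13.2 CPM) in KO and 198 UMIs (8.32 CPM) in WT, the log2 ratio was 0.67 (interval 0.40 to 0.94). Its neighbours had ratios of the other sign. The 10 nearest measured genes all had a log2 ratio below 0 in both sets. Their median was -0.27 in the deep set and -0.51 in the shallower set, where all genes at that level had -0.14 and -0.15. Of the 10, 2 were at least 1.5-fold lower in the deep set and 5 in the other, beside 13.0% and 10.1% of all genes. SOX21, a neural transcription factor, had the lowest ratio in the shallower set, at -1.59. Whether this is particular to the region was not tested. DZIP1, whose 3′ end overlaps CLDN10 by 1558 bases, had 872 KO and 1179 WT UMIs in that set, a log2 ratio of -0.26.

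CLDN3 and CLDN4, related claudins that lie 60.7 kb apart on chromosome 7 and that are classic receptors of Clostridium perfringens enterotoxin, were counted at low levels. CLDN3 lies at 73768997 to 73770270 and CLDN4 at 73830996 to 73832690. CLDN3 had 31 UMIs (8.69 CPM) in deep KO barcodes and 32 UMIs (6.88 CPM) in deep WT barcodes, and in the other set 191 UMIs (9.06 CPM) in KO and 132 UMIs (5.55 CPM) in WT. Its log2 ratio was 0.34 (interval -0.42 to 1.1) in the deep set and 0.71 (interval 0.38 to 1.04) in the other. CLDN4 had 7 UMIs in deep KO barcodes and 11 in deep WT barcodes, and 58 UMIs (2.75 CPM) in KO against 40 UMIs (1.68 CPM) in WT in the other set. CLDN4 had opposite signs in the deep set, at -0.27 (interval -1.87 to 1.23), and in the other, at 0.71 (interval 0.10 to 1.33), and no difference was detectable at the depth of the deep set. Over all 5 claudins the log2 ratio was 0.72 in deep barcodes and 0.73 in shallower barcodes.

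EPCAM (chromosome 2, 47369311 to 47387020), a homophilic adhesion protein of epithelial and pluripotent cells, had 735 UMIs (206 CPM) in deep KO barcodes and 534 UMIs (115 CPM) in deep WT barcodes. In the shallower set it had 4560 UMIs (216 CPM) in KO and 2909 UMIs (122 CPM) in WT. The level was 1.79-fold higher in deep KO barcodes (log2 ratio 0.84, interval 0.68 to 1.01) and 1.77-fold higher in the other set (log2 ratio 0.82, interval 0.75 to 0.89). Of the genes averaging 20 CPM or more, 31 of 5710 had a higher ratio in the deep set and 32 of 5731 in the other. Its 10 nearest measured genes on chromosome 2 had a median log2 ratio of -0.06 in the shallower set. CDH1, the epithelial cadherin, which belongs to another gene group, had 2344 UMIs in KO and 851 in WT in that set, a log2 ratio of 1.64.

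F11R (JAM-A; chromosome 1, 160995211 to 161021152), an immunoglobulin-like adhesion molecule that helps set up cell polarity, differed least among the members with over 100 UMIs per library. It had 460 UMIs (129 CPM) in deep KO barcodes and 441 UMIs (94.8 CPM) in deep WT barcodes, and 2825 UMIs (134 CPM) in KO against 2578 UMIs (108 CPM) in WT in the other set. Its log2 ratio was 0.44 (interval 0.25 to 0.63) in the deep set and 0.31 (interval 0.23 to 0.38) in the other, or 1.36-fold and 1.24-fold higher in KO. Both intervals lie above 0, and F11R was under the 1.5-fold mark in both sets.

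OCLN, the occludin gene (chromosome 5, 69492547 to 69558104), had 0 UMIs in deep KO barcodes, with an upper limit of 1.03 CPM, and 2 in deep WT barcodes, both under the floor of 3 counts, so no fold is given. In the other set it had 13 UMIs in KO and 11 in WT, with a log2 ratio of 0.41 (interval -0.86 to 1.72). TJP1, the ZO-1 scaffold (chromosome 15, 29699367 to 29969049), had 7 UMIs in deep KO barcodes and 5 in deep WT barcodes, and 37 UMIs in KO against 47 in WT in the other set. The intervals of its log2 ratio, 0.87 (interval -1.0 to 2.87) in the deep set and -0.17 (interval -0.83 to 0.48) in the other, both include 0, so a change of OCLN or TJP1 was not detectable at this depth. Pseudogene copies of both could share reads with them, and OCLNP1 and TJP1P1 held at most 7 UMIs in either library in these sets.

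**Figure D2:**
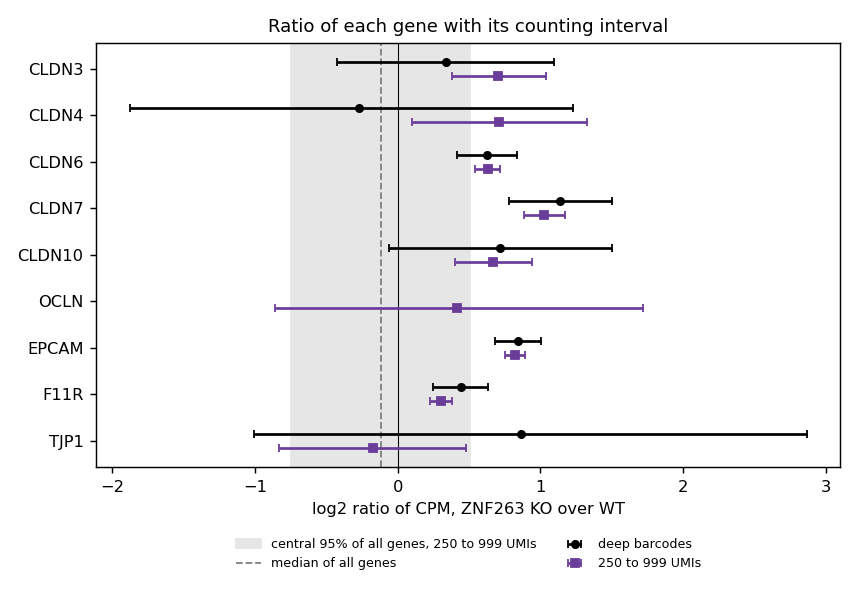
Log2 ratio of CPM, ZNF263 KO over WT, of each gene in deep barcodes and in shallower barcodes, with exact 95% counting intervals. The shaded band is the central 95% of all genes averaging 20 CPM or more, from -0.75 to 0.51, in the second set. The points of CLDN6, CLDN7, CLDN10 and EPCAM lie beyond its upper edge in both sets, while those of F11R lie inside it. The intervals of CLDN10 in both sets, and of CLDN6 in deep barcodes, reach into the band.

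The ratios were then set out by depth, since the same sum can come from barcodes of unequal depth. In 5 bins that start at 100, 250, 500, 1000 and 2000 UMIs, the summed members had log2 ratios of 0.61, 0.63, 0.67, 0.78 and 0.51, with every interval above 0. CLDN6, CLDN7, EPCAM and F11R each had a ratio with an interval above 0 in 5 of 5 bins. CLDN7 ranged from 0.87 to 1.25, EPCAM from 0.57 to 0.99, CLDN6 from 0.41 to 0.73 and F11R from 0.25 to 0.46. In the deepest bin, 374 KO barcodes held 560 member UMIs and 516 WT barcodes held 534. The summed ratio was thus above 0 at each depth, and it was lowest in the deepest barcodes.

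**Figure D3:**
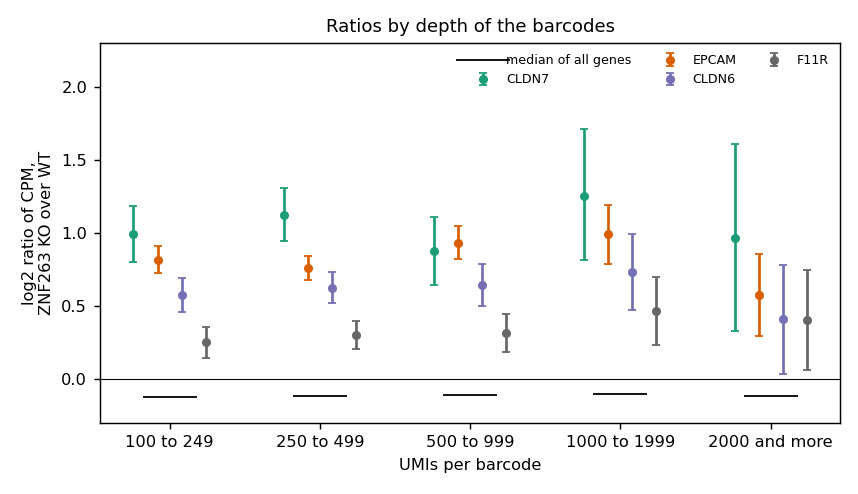
Log2 ratio of CPM, ZNF263 KO over WT, of EPCAM, CLDN7, CLDN6 and F11R and the median of all genes in 5 bins of UMIs per barcode, with exact 95% counting intervals. All 20 gene values lie above 0, and CLDN7 and EPCAM lie above F11R in every bin.

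Barcodes with 10 to 100 UMIs, which hold too few UMIs to be read as cells, carried a difference of similar size. The 9 genes summed to 9491 UMIs (550.0 CPM) in KO and 6529 UMIs (351 CPM) in WT there, a log2 ratio of 0.65 (interval 0.60 to 0.70). Shares of barcodes with a UMI were therefore set against the share that the profile of these barcodes would give. After thinning each deep barcode to 1000 UMIs, which left out 0 barcodes, at least 1 UMI of the 9 genes was found in 38.7% of 2286 KO barcodes (exact interval 36.7 to 40.7) and 25.8% of 2935 WT barcodes (24.2 to 27.4). At 1000 UMIs that profile would give 42.3% in KO and 29.6% in WT. Unthinned, the shares were 49.4% in KO and 34.7% in WT, where the profile would give 55.0% in KO and 41.0% in WT. These shares are at or under the background and are not read as shares of expressing cells. EPCAM was found in 18.6% of KO and 10.1% of WT deep barcodes after thinning, where the profile of barcodes with 10 to 100 UMIs would give 19.3% in KO and 11.2% in WT. In shallower barcodes thinned to 250 UMIs, the share with any of the 9 was 12.9% in KO and 8.58% in WT, and the same profile would give 12.9% in KO and 8.39% in WT, again near background.

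The spread of the 9 genes' summed UMIs across deep barcodes lay somewhat above that of counting alone. After thinning to 1000 UMIs, the variance over the mean was 1.095 in KO and 1.113 in WT. Counts of a single constant rate give a value near 1. At mean counts of 0.516 UMIs in KO and 0.314 in WT, such values can still come with rates that differ between barcodes. How far the rates differ was not tested. EPCAM and CLDN6 were found together in 72 deep KO barcodes, against 47.2 expected if independent (ratio 1.52, interval 1.19 to 1.92), and in 22 deep WT barcodes, against 20.7 expected (ratio 1.06, interval 0.66 to 1.61). EPCAM and CLDN7 were together in 22 KO barcodes against 18.4 expected and in 16 WT barcodes against 6.27 expected (WT ratio 2.55, interval 1.46 to 4.14). EPCAM with CLDN6 in KO and EPCAM with CLDN7 in WT had the only 2 of 12 intervals (6 pairs of EPCAM, CLDN6, CLDN7 and F11R in each library) that did not include 1 in deep barcodes, and 3 of the 12 ratios were below 1, such as CLDN6 with CLDN7 at 0.64 in KO and 0.69 in WT. In the shallower barcodes all 12 intervals included 1, and these sparse counts are not read as a finding.

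The members' level moved with the share of mitochondrially encoded UMIs. In deep barcodes with 0 to 2%, 2 to 5%, 5 to 10% and 10 to 20% mitochondrial UMIs, the summed level was 261, 495, 614 and 753 CPM in KO, and 190, 316, 394 and 547 CPM in WT. Within a library, the level at 5 to 10% was 2.35-fold that at 0 to 2% in KO and 2.07-fold in WT. These log2 differences were 1.23 in KO and 1.05 in WT. The central 95% of all genes averaging 20 CPM or more over these classes was -0.81 to 1.49 in KO and -0.71 to 1.62 in WT. Both summed differences lay in the upper part of that range. They stood at percentile 95.3 in KO and 90.8 in WT. In KO, CLDN6 at 1.64 lay above that range, while CLDN7, EPCAM and F11R lay inside it. CLDN10, itself under 20 CPM, was also above it at 1.61, from 19 against 3 UMIs (interval -0.15 to 4.01). TJP1 went the other way in KO, at -2.63 from 1 against 3 UMIs (interval -8.35 to 1.00). In WT, CLDN6, at 1.09, lay inside. The summed levels of the same classes differed in shallower barcodes by 1.75-fold in KO and 1.47-fold in WT. The KO over WT log2 ratio within these 4 classes was 0.46, 0.65, 0.64 and 0.46, and every interval lay above 0. CLDN6, CLDN7 and EPCAM each had a ratio above 0 in 4 of 4 deep classes. Their intervals lay above 0 in 2, 2 and 3 of the 4. F11R had a ratio above 0 in 3 of 4, with an interval above 0 in 2, and was at -0.15 (interval -0.82 to 0.53) at 10 to 20%. In shallower barcodes the summed ratios within the same classes were 0.46, 0.57, 0.72 and 0.57. CLDN6, CLDN7 and EPCAM were above 0 in 4 of 4 classes of that set. F11R and CLDN10 were above 0 in 3 of 4, with lowest ratios of -0.58 and -0.20. Mitochondrial UMIs made up 5.45% of the KO and 4.58% of the WT UMIs of the deep set.

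**Figure D4:**
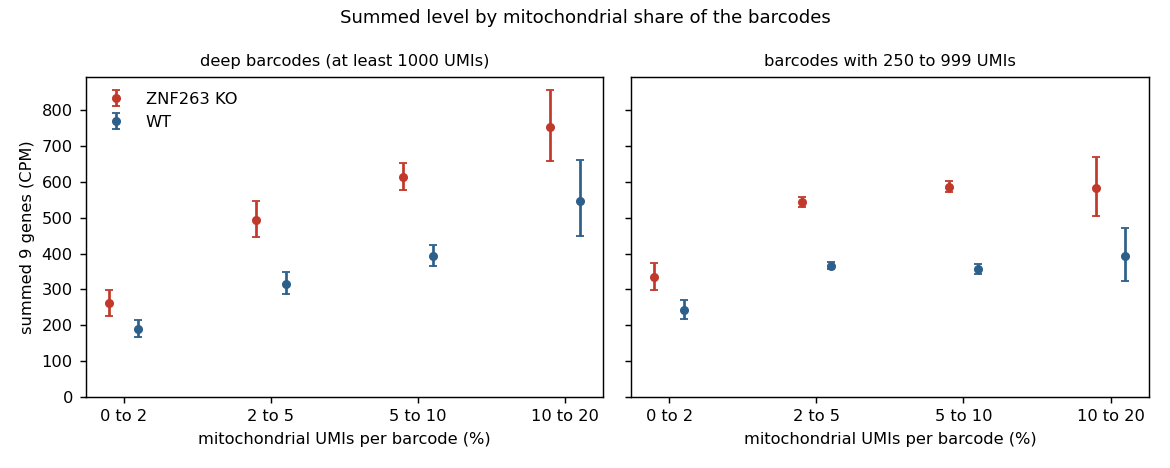
Summed level of the 9 genes in CPM in 4 classes of mitochondrial share of the barcodes, ZNF263 KO left of WT, for deep barcodes and for shallower barcodes, with exact 95% counting intervals. In both panels KO lies above WT in every class, and in the deep panel the level is higher in each higher class in both libraries.

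Other cell type markers differed between the libraries. The 12 neuroectoderm markers summed to 409 CPM in KO and 663 CPM in WT in deep barcodes (log2 ratio -0.70), and to 411 CPM in KO and 708 CPM in WT in the other set (-0.78), with 0 of 12 markers at 0 in either library. The 5 primitive streak markers summed to 13.5 CPM in deep KO barcodes and 36.3 CPM in deep WT barcodes. Mesoderm and fibroblast markers summed to 61.1 CPM in deep KO and 60.4 CPM in deep WT barcodes, amnion and trophoblast markers to 8.41 CPM in KO and 10.8 CPM in WT, and definitive endoderm markers to 3.36 CPM in KO and 3.66 CPM in WT. With more counts, in shallower barcodes, the log2 ratio was -1.91 for the primitive streak list, -0.84 (interval -1.25 to -0.43) for definitive endoderm, -0.20 (interval -0.30 to -0.10) for mesoderm and fibroblast and -0.27 (interval -0.56 to 0.01) for amnion and trophoblast. Among barcodes with 0 neuroectoderm UMIs, 1298 KO and 1212 WT barcodes in the deep set, the summed members had a log2 ratio of 0.66 (interval 0.51 to 0.82). In the shallower set it was 0.64 among 42773 KO and 42849 WT barcodes with 0 such UMIs. A barcode at this depth can lack marker UMIs and still hold such a cell, and the part of the other markers in the members' ratio was not tested beyond these values.

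The wider junction list held 61 further genes: other claudins, MARVEL proteins, polarity proteins, scaffolds, nectins and related surface proteins. Of these, 36 averaged 5 CPM or more in deep barcodes, 3 at least 1.5-fold higher in KO and 6 at least 1.5-fold lower (3.94% higher and 13.0% lower over all genes), with a median log2 ratio of -0.01. In shallower barcodes 37 were measured, 3 higher and 7 lower (2.79% higher and 10.1% lower over all genes), with a median of 0.04. Counts of this size are not read as a result about the list. The medians of the 6 measured members, 0.67 and 0.69, lay above these, but both lists were chosen with earlier results of these data known. MARVELD3, an occludin-related MARVEL protein, had 116 KO and 73 WT UMIs in deep barcodes and 851 KO and 437 WT UMIs in the other set, and its log2 ratio was 1.05 (interval 0.62 to 1.49) in the deep set and 1.13 (interval 0.97 to 1.30) in the other. In the shallower set, CGNL1 (paracingulin) had 758 KO and 538 WT UMIs and a log2 ratio of 0.67. In deep barcodes its ratio was 0.55, under 1.5-fold, while LIN7C, a PDZ scaffold, was at 0.77 and SPINT1, a membrane protease inhibitor, at 0.64. The 3 list genes past 1.5-fold higher in the shallower set include MARVELD3 and CGNL1, so LIN7C and SPINT1 did not both pass there.

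Of the list genes lower in KO, AMOTL1, an angiomotin that links junctions to YAP, had 46 KO and 130 WT UMIs in deep barcodes and 357 KO and 804 WT UMIs in the other set, with log2 ratios of -1.12 and -1.0. MPDZ, a PDZ scaffold of the Crumbs complex, had ratios of -0.66 and -0.81, and MAGI3, another PDZ scaffold, -0.71 and -0.86. CLDN12, at -0.92, and ARHGEF18, a RhoA exchange factor, at -0.83, passed 1.5-fold only in deep barcodes, and their ratios in the other set were -0.27 and 0.01. JAM2, a relative of F11R, at -0.97 and PARD6G, a polarity protein, at -0.90 passed it only in the shallower set, and in deep barcodes they were at -0.18 and -0.26. Whether the members and the wider list differ beyond chance was not tested, since each library is a single sample.

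**Figure D5:**
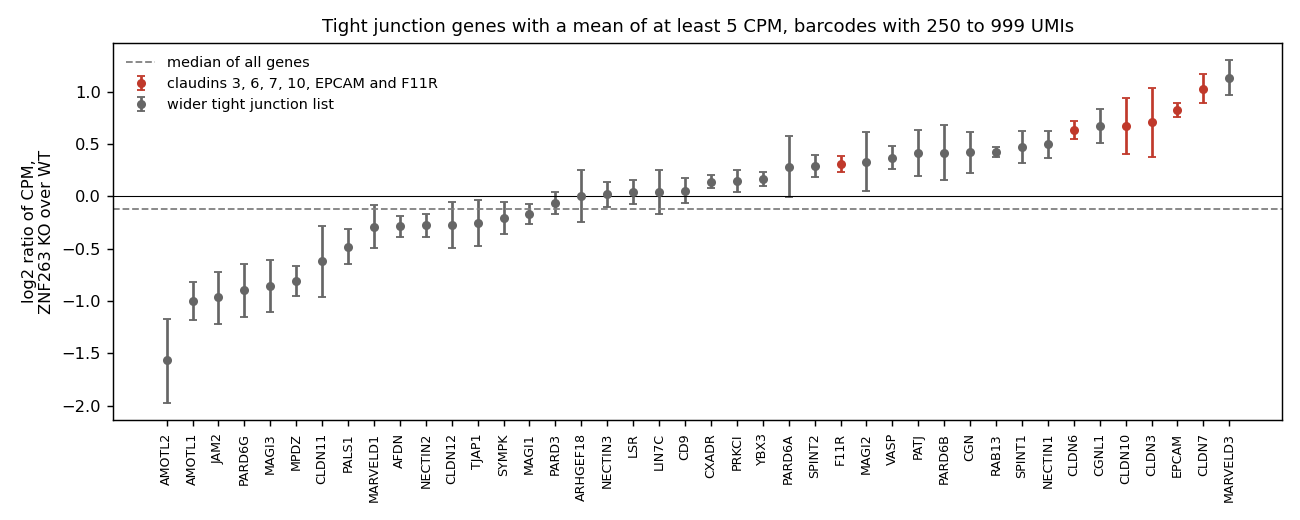
Log2 ratio of CPM, ZNF263 KO over WT, in shallower barcodes of the 6 members and 36 of the 37 wider list genes averaging 5 CPM or more, with exact 95% counting intervals and the median of all genes. The 6 members lie between 0.31 and 1.03, and the 37 wider list genes have a median of 0.04.

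Genes whose level followed the members' sum across 10 profiles (both libraries in 5 depth bins each) were ranked by Pearson correlation of log2(CPM + 10) among 5686 genes averaging 20 CPM or more. The highest were BEX3 at 0.992, TDGF1, the NODAL co-receptor, at 0.989, THY1, a surface glycoprotein, at 0.985, LRRC8A, an anion channel subunit, at 0.983 and the pseudogene RPS27AP16 at 0.982, whose reads may belong to its parent gene. The profiles come from only 1 library per genotype and share its RNA and depth, and no test was made. A gene that is steadily higher in KO can rank high by that alone. RPS27AP16 had a deep log2 ratio of 0.33, and whether its rank comes from that was not tested. The ranking may thus largely restate the KO over WT difference, and it is not read as shared expression in cells. TDGF1 had 932 KO and 692 WT UMIs in deep barcodes, a log2 ratio of 0.81. Some genes were looked up by name. MARVELD3 ranked 15 of 5686 with 0.973 and CDH1 20 with 0.969, while SPINT1 ranked 124 with 0.932. SPINT2, also of the wider list, ranked 336 with 0.861.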

How the data were processed

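Single-cell RNA of polyadenylated transcripts was captured on barcoded beads in microwells and fragmented with Tn5, per the labels' protocols. The files the authors deposited hold unnormalized whole-number UMI counts for each gene in each barcode. Named in the submitters' processing notes, without role or order, are STAR 2.7.10a, UMI-tools 1.1.2, Subread, featureCounts 2.0.1 and build hg38. The annotation, strand setting and barcode filter are not given there. The KO library held 54559376 UMIs in 841049 barcodes and the WT library 60578040 in 842407. The KO table's entries exceed the number in its own size line by 15, and none was dropped. Here counts were summed per library over the barcode sets and divided by the summed UMIs to give CPM. Intervals are exact Poisson for levels, exact conditional binomial for ratios and Clopper-Pearson for shares, at 95%. The counts were not tested with a count model, because each genotype is 1 library. Thinning drew UMIs without replacement with a fixed seed. Doublets were not removed, and an alternative left out 10 KO and 16 WT barcodes above 4 times the median UMI count. Calculations used Python 3.11.15, NumPy 2.4.6, SciPy 1.17.1, pandas 2.3.3 and matplotlib 3.10.9, and were tested on simulated data. Promoter sequences and gene positions are RefSeq's, GRCh38.p14. The members and the lists were chosen with earlier results of these data known. The text names the 9 members, ZNF263, wider list genes averaging 10 CPM or more and a ratio past 1.5-fold, neighbours, and the 5 genes most like the summed members. Counts and medians of the wider list cover all its genes, but 1 gene is not reported by name or drawn here. CDH1, and wider list values given for contrast, were named after their values were seen. Alternatives changed the barcode minimum, the mitochondrial limit, the scaling, thinning, cell numbers and shared barcodes.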

Additional observations from a re-analysis of the deposited data

How the results depend on the processing

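The summed members had a log2 ratio of 0.51 to 0.81 in deep barcodes and 0.54 to 0.76 in shallower barcodes under all alternatives run, always higher in KO. The values that moved by more than their counting error were 0.51 at a minimum of 2000 UMIs and 0.81 relative to the median of all genes in deep barcodes, and 0.71 scaled without mitochondrial and ribosomal protein genes, 0.76 relative to the median and 0.54 without EPCAM in the other set. The number of members at least 1.5-fold higher was 1 in deep barcodes at a minimum of 2000 UMIs and 1 at 2-fold, beside 4. In the other set it was 1 at 2-fold, 3 among members of at least 20 CPM, where fewer members are counted, and 3 among barcodes with 0 neuroectoderm UMIs, beside 5. The share of deep barcodes with a member UMI was 21.6% in KO and 13.9% in WT thinned to 500 UMIs, and 49.4% in KO and 34.7% in WT unthinned. It was 12.9% in KO and 8.58% in WT in shallower barcodes thinned to 250, and in KO 36.6% at a minimum of 2000 UMIs and 36.5% with at most 10% mitochondrial UMIs. TJP1 reversed, from few counts, with a log2 ratio of -0.025 in deep barcodes at a minimum of 500 UMIs, beside 0.87, and the cause was not tested. CLDN4 also changed sign there, to 0.19, beside -0.27, within its counting interval. Of 165 values of single members under alternatives, 163 kept their direction, and 157 lay within the counting interval of the reported value with no reversal past 1.5-fold. The median of the wider list ranged from -0.14 to 0.21. The alternatives without EPCAM, with 0 neuroectoderm UMIs, at 20 CPM, thinned to 250 UMIs and without shared barcodes in the shallower set were added after seeing the data. No paired analysis was possible because each genotype has a single library. Depth limits OCLN, TJP1 and CLDN4, whose deep counts were 11 UMIs or fewer per library.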
